A study of Mus musculus with 2 samples.

Results

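The genes described here are 8 sterol-regulated genes: Hmgcs1, Idi1, Fdft1, Sqle, Lss and Cyp51, which encode enzymes of cholesterol synthesis, and Insig1 and Srebf2, which encode regulators of that pathway. They were chosen by name, as 8 of the 32285 genes listed in each matrix, and all 8 were detected in every cluster of cells described below. Single-cell RNA sequencing was done on primary cells of the stromal vascular fraction from the subcutaneous white (WAT) and the interscapular brown (BAT) depot of C57/BL6J mice at postnatal day 0, both sexes, with 1 library per depot made from 4 pooled pups. WAT was digested with collagenase for 35 minutes and BAT for 50 minutes, and the cells of both were grown to confluency over 4 days in medium with 20% fetal bovine serum, which itself carries lipoproteins, before they were lifted and captured. Age and culture time are those of the labels. The paper's text gives the age as a day later, and the culture time as a day longer in its results but not in its methods. The labels name no transgene and no treatment. The cells are thus cultured precursors rather than cells taken straight from fat, and depot, library, digestion time and culture cannot be told apart. The paper's authors grouped the precursor cells by clustering into wAPC 1 to 4, wCAPs (committed adipocyte progenitors), wFAPLs (fibro-adipogenic progenitor-like cells) and differentiating wFAPLs in WAT, and into bAPC 1 to 5, bCAPs and bFAPLs in BAT. Only part of their labels was used here, for 1999 of 4331 labelled white precursor cells (46.2%) and 1999 of 5958 brown ones (33.6%), the first in the alphabetical order of the cell barcodes, so all cluster values below rest on these cells.

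Cholesterol is built from acetyl-CoA through mevalonate, isoprenoids, squalene and lanosterol. When sterols are scarce in the membrane of the endoplasmic reticulum, SCAP escorts the precursor of SREBP2, the product of Srebf2, to the Golgi, where site-1 and site-2 proteases release its active part, which then switches on the genes of cholesterol synthesis and uptake. When sterols are plentiful, INSIG proteins hold SCAP and SREBP2 back. In fat cells cholesterol is needed for membranes and is stored in lipid droplets, and preadipocytes make or take up what they need while they divide.

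The promoters of 4 members are shown because the members are known to share sterol-regulated transcription. The sequences are those of RefSeq on GRCm38.p6, all on the plus strand, from 250 bases before the RefSeq start to that start or to the first annotated exon: chr13:119690101-119690350 for Hmgcs1, chr10:76531355-76531587 for Lss, chr5:28071162-28071362 for Insig1 and chr15:82147019-82147180 for Srebf2. Capitals mark each match, on either strand, to the core of the sterol regulatory element (TCACNCCAC), to the CCAAT box read by NF-Y (ATTGG on the other strand) and to the E-box CACGTG, and no match overlaps another.
Hmgcs1: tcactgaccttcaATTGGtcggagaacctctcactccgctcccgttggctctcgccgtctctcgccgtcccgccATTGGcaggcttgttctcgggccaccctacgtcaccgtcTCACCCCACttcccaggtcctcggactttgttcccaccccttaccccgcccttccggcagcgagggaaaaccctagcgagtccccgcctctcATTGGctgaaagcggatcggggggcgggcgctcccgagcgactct
Lss: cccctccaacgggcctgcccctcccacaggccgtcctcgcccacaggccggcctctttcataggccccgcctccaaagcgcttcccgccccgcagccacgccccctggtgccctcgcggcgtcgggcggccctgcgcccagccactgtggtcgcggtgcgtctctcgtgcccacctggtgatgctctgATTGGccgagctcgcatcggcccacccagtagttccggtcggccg
Insig1: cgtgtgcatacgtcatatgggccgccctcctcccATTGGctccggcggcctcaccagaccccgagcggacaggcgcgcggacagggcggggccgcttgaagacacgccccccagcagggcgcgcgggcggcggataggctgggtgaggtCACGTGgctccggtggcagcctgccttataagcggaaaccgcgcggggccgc
Srebf2: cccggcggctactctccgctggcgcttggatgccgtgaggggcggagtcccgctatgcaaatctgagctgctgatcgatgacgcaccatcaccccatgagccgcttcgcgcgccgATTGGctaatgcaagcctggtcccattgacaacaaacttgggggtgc

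RefSeq promoters were found for 6 of the 8 members, and within the 250 bases before the start all 6 held a CCAAT box and all 6 a GGGCGG box, the motif read by Sp1. Of 32544 promoters, 33.8% held CCAAT, 33.0% held GGGCGG and 11.1% held both. The sterol regulatory element core was matched only in Hmgcs1, at 137 to 129 bases before the start, and in 1.04% of all promoters. Hmgcs1 also held 3 CCAAT boxes, Idi1 held 2 and the other 4 held 1 each. The E-box of Insig1 began 101 bases before its start, and 6.03% of all promoters held one. A match describes these letters only, since no binding was measured. Only exact letters were searched, so the lack of a match does not show that an element is absent.

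The deposited values are counts of unique molecular identifiers (UMIs). Expression in a cluster is given as CPM, the UMIs of a gene summed over the labelled cells per 1000000 of all their UMIs. Parentheses after a CPM value hold its exact 95% limits from the Poisson distribution, and those after a log2 ratio the exact conditional binomial limits. Both cover counting error only. Clusters next to each other in an order are called overlapping where their CPM limits overlap, which does not show that their levels are equal. With 1 library per depot there is no replicate, so no test, SD or p-value is given, and an interval that excludes 0 says only that 2 sums of UMIs differed by more than counting error. The clusters were defined by the authors on the same cells with genes that may include the members, so differences between clusters are descriptions.

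WAT held 5261 captured cells with a median of 26239 UMIs and BAT 7009 with a median of 26411, and 9 cell barcodes occurred in both libraries. The paper named the CAP and FAPL clusters by markers that include Pparg, Fabp4, Serpinb1a and Cryab. Their levels here thus check only that labels were matched to the right cells. Pparg and Fabp4 summed to 178 CPM in wCAPs against 46.7 in wFAPLs, and to 395 in bCAPs against 108 in bFAPLs. All 4 FAPL markers (Serpinb1a, Cryab, Meox2 and Col4a1) were higher in the FAPLs of both depots. The mature adipocyte genes Adipoq, Plin1, Cidec and Lep together reached 0.488 CPM in white and 0.900 CPM in brown precursor cells. The differentiating wFAPLs are 15 cells, and in them 4 markers of mural cells (Myh11, Acta2, Rgs5 and Actg2) summed to 30594 CPM against 3803 over all white precursor cells, so their values stand on few cells with high levels of contractile genes. Myeloid markers (Ptprc, Lyz2, Cd68 and Csf1r) summed to 5.98 to 26.8 CPM in the CAPs and FAPLs of both depots, against 8355 and 6753 CPM in the labelled white and brown myeloid cells.

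The summed level of the 8 genes differed up to 2.79-fold between the white clusters and up to 1.67-fold between the brown ones. Without the 15 differentiating wFAPLs the white range was 1.66-fold, as wide as the brown one. In WAT it was highest in wAPC 2 at 1270.5 CPM (1246 to 1296), followed by wAPC 1 at 1031, wCAPs at 967 (953 to 981), wAPC 3 at 945, wFAPLs at 787 (766 to 808), wAPC 4 at 767 and differentiating wFAPLs at 455 CPM (396 to 520). Of the neighbours in this order, wCAPs and wAPC 3 overlapped within counting error, as did wFAPLs and wAPC 4. In BAT the order began with bCAPs at 1033 CPM (1011 to 1055), bAPC 5 at 991 and bAPC 4 at 958, which overlapped as neighbours, and went on with bAPC 1 at 908, bAPC 3 at 831, bAPC 2 at 780.1 and bFAPLs at 617 CPM (600 to 635). The committed cells thus led the brown order, with an interval that overlapped that of bAPC 5. In WAT both wAPC 2 and wAPC 1 stood above the committed cells by more than counting error.

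Every member was highest in wAPC 2 among the 7 white clusters, and every member was lowest in bFAPLs among the 7 brown clusters. Of all genes at 10 CPM or more in at least 1 cluster, 12.8% were highest in wAPC 2 and 9.65% were lowest in bFAPLs. In WAT, 7 members were lowest in the differentiating wFAPLs, where 48.1% of all genes had their lowest value, and Idi1 was lowest in wAPC 4. The brown maximum was spread over 3 clusters: bCAPs for Sqle, Idi1, Insig1 and Srebf2, where 15.9% of all genes were highest, bAPC 5 for Hmgcs1, Fdft1 and Lss, where 14.5% were, and bAPC 4 for Cyp51.

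**Figure D1:**
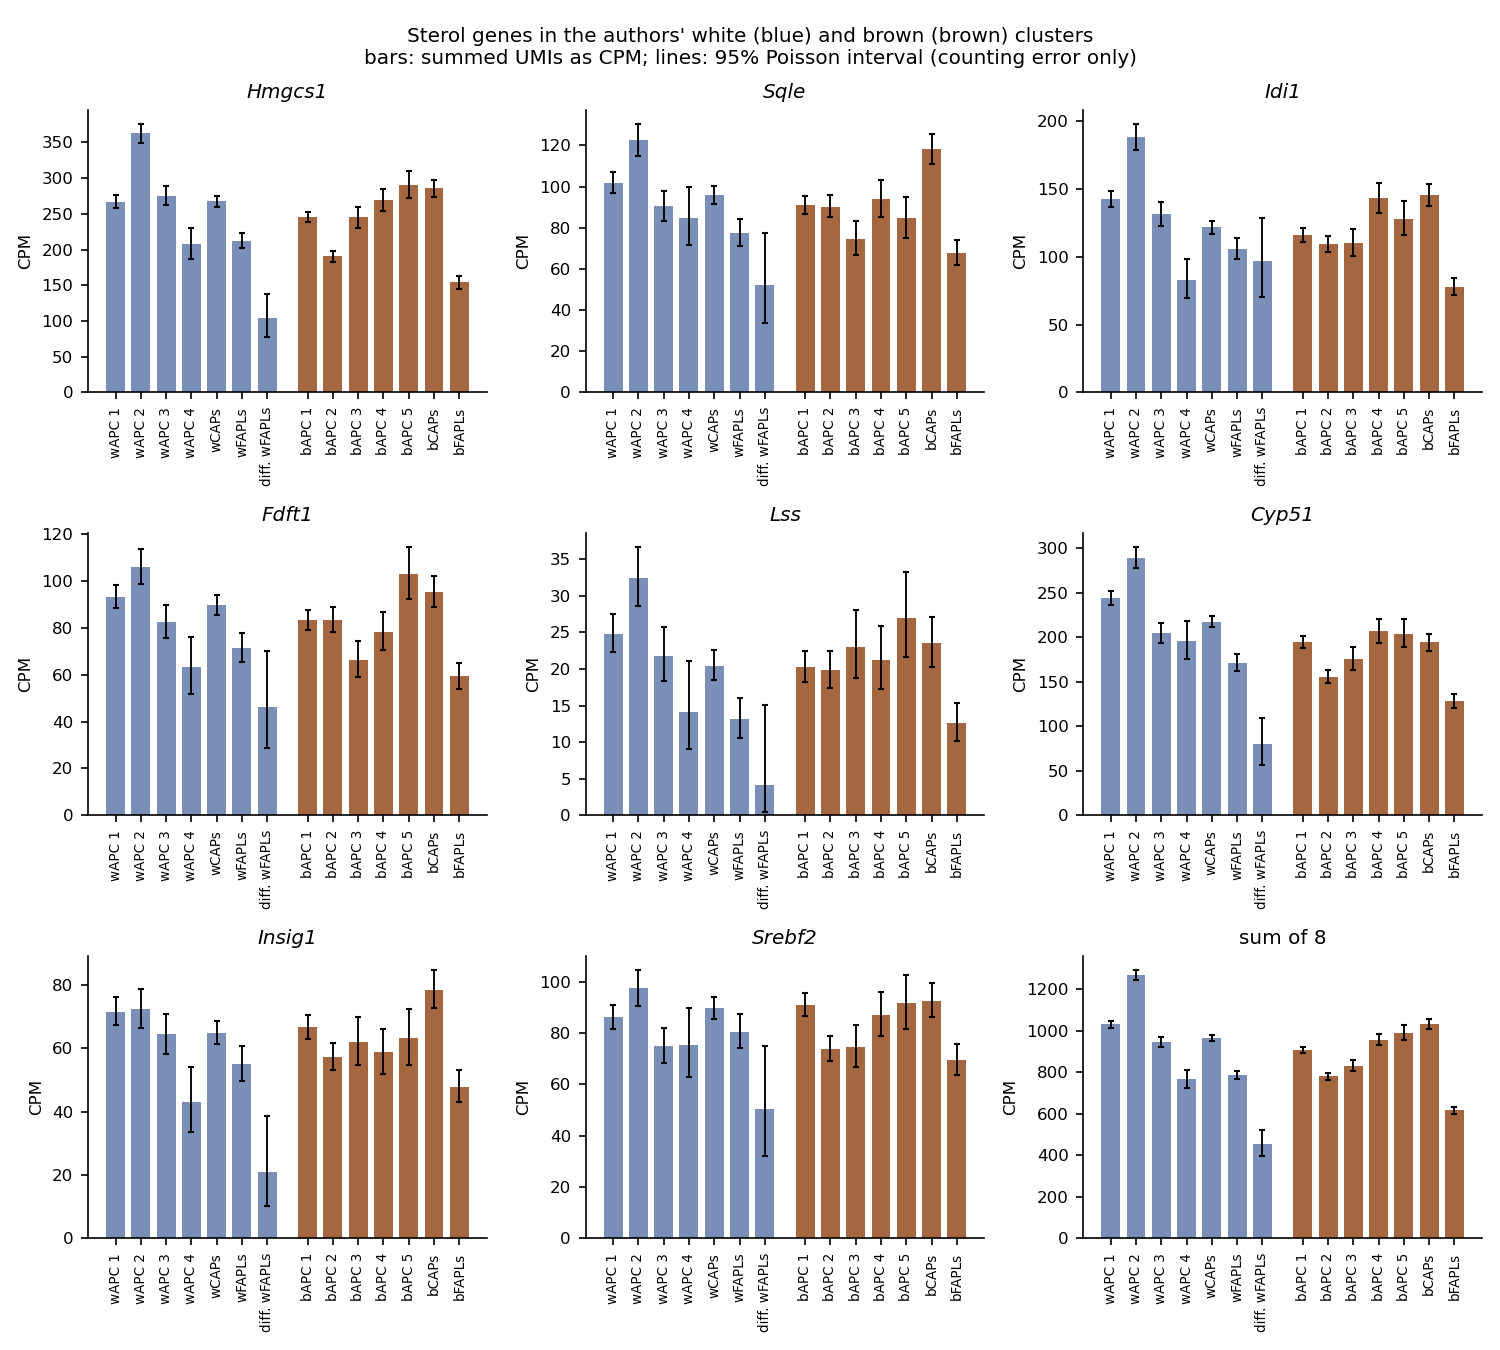
CPM of each gene and of their sum (y axes, from 0) in the authors' 7 white and 7 brown clusters (x axes). Bars are summed UMIs and lines the 95% Poisson intervals; wAPC 2 has the tallest white bar and bFAPLs the shortest brown bar in all 9 panels.

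Hmgcs1 (ENSMUSG00000093930, chromosome 13, 119690379 to 119708260 on GRCm38) encodes the cytosolic HMG-CoA synthase that feeds the mevalonate pathway. In WAT its level was 362 CPM (349 to 376) in wAPC 2, 275 in wAPC 3, 267 in both wCAPs and wAPC 1, 213 in wFAPLs, 207 in wAPC 4 and 105 in differentiating wFAPLs. The step below wAPC 2 was wider than counting error, and the next 3 clusters overlapped. In BAT Hmgcs1 was at 290.2 CPM in bAPC 5, 286 in bCAPs, 269 in bAPC 4, 246 in bAPC 1, 245 in bAPC 3, 191 in bAPC 2 and 154 (145 to 163) in bFAPLs. The highest 3 brown clusters overlapped as neighbours, and bFAPLs stood apart from the rest.

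Idi1 (ENSMUSG00000058258, chromosome 13, 8885501 to 8892451) encodes isopentenyl-diphosphate isomerase, which prepares the building blocks of the isoprenoids. It reached 188 CPM (178 to 198) in wAPC 2, 142 in wAPC 1, 131 in wAPC 3, 122 in wCAPs, 106 in wFAPLs, 96.5 in differentiating wFAPLs and 83.1 in wAPC 4. The brown clusters ran from 145 CPM in bCAPs and 143 in bAPC 4 over 128 in bAPC 5, 116 in bAPC 1, 110.0 in bAPC 3 and 109 in bAPC 2 to 77.9 (71.7 to 84.4) in bFAPLs. All brown neighbours but the last pair overlapped.

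Fdft1 (ENSMUSG00000021273, chromosome 14, 63145150 to 63179578, minus strand) encodes squalene synthase, the first step committed to sterols. Its white levels were 106 CPM in wAPC 2, 93.1 in wAPC 1, 89.5 in wCAPs, 82.2 in wAPC 3, 71.4 in wFAPLs, 63.1 in wAPC 4 and 46.1 in differentiating wFAPLs. Its brown levels were 103 CPM in bAPC 5, 95.2 in bCAPs, 83.4 in bAPC 2, 83.1 in bAPC 1, 78.1 in bAPC 4, 66.4 in bAPC 3 and 59.3 in bFAPLs. The intervals of all brown neighbours overlapped, although those at the ends of the order did not.

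Sqle (ENSMUSG00000022351, chromosome 15, 59315077 to 59331192) encodes squalene epoxidase, a rate-limiting enzyme of the sterol branch. It was at 123 CPM (115 to 131) in wAPC 2, 102 in wAPC 1, 95.9 in wCAPs, 90.4 in wAPC 3, 84.9 in wAPC 4, 77.4 in wFAPLs and 52.4 in differentiating wFAPLs. In the brown culture bCAPs alone stood apart at the top with 118 CPM (111 to 126), ahead of 93.8 in bAPC 4, 91.0 in bAPC 1, 90.3 in bAPC 2, 84.6 in bAPC 5, 74.6 in bAPC 3 and 67.9 in bFAPLs.

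Lss (ENSMUSG00000033105, chromosome 10, 76531588 to 76557138) encodes lanosterol synthase, which closes the ring system of the sterols. Its levels of 32.5 CPM (28.6 to 36.7) in wAPC 2, 24.8 in wAPC 1, 21.8 in wAPC 3, 20.5 in wCAPs, 14.1 in wAPC 4 and 13.1 in wFAPLs rested on 24 to 397 UMIs. In differentiating wFAPLs only 2 UMIs were found, 4.19 CPM (0.508 to 15.1). The brown values were 26.9 CPM in bAPC 5, 23.5 in bCAPs, 23.1 in bAPC 3, 21.2 in bAPC 4, 20.3 in bAPC 1, 19.8 in bAPC 2 and 12.6 (10.2 to 15.4) in bFAPLs. The first 6 brown clusters overlapped as neighbours, and bFAPLs did not overlap bAPC 2.

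Cyp51 (ENSMUSG00000001467, chromosome 5, 4081145 to 4104746, minus strand) encodes the lanosterol demethylase that starts the conversion of lanosterol to cholesterol. It was at 289 CPM (277 to 301) in wAPC 2, 244 in wAPC 1, 217 in wCAPs, 204 in wAPC 3, 196 in wAPC 4, 171 in wFAPLs and 79.7 in differentiating wFAPLs. The brown culture had a flatter order, with 206 CPM in bAPC 4, 204 in bAPC 5, 194 in both bAPC 1 and bCAPs, 176 in bAPC 3, 156 in bAPC 2 and 128 (120 to 136) in bFAPLs. The first 5 brown clusters overlapped as neighbours, and bAPC 2 and bFAPLs each stood apart below them.

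Insig1 (ENSMUSG00000045294, chromosome 5, 28071363 to 28078662) encodes a membrane protein that retains SCAP and is itself induced by SREBP2, so that it closes a feedback loop. In WAT its levels of 72.4 CPM in wAPC 2, 71.6 in wAPC 1, 65.0 in wCAPs, 64.4 in wAPC 3, 55.1 in wFAPLs, 43.0 in wAPC 4 and 21.0 in differentiating wFAPLs overlapped between all neighbours. In BAT bCAPs at 78.6 CPM (72.7 to 84.9) stood above bAPC 1 at 66.7, bAPC 5 at 63.2, bAPC 3 at 62.1, bAPC 4 at 58.8, bAPC 2 at 57.4 and bFAPLs at 47.9 CPM.

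Srebf2 (ENSMUSG00000022463, chromosome 15, 82147181 to 82205379) encodes the transcription factor itself, and it varied least. Its white levels were 97.5 CPM in wAPC 2, 89.7 in wCAPs, 86.2 in wAPC 1, 80.5 in wFAPLs, 75.4 in wAPC 4, 74.9 in wAPC 3 and 50.3 in differentiating wFAPLs. Its brown levels ran from 92.6 CPM (86.2 to 99.5) in bCAPs over 91.7 in bAPC 5, 90.9 in bAPC 1, 87.1 in bAPC 4, 74.6 in bAPC 3 and 73.8 in bAPC 2 to 69.5 (63.7 to 75.7) in bFAPLs. All neighbours overlapped in both depots, and the brown maximum was 1.33-fold above the minimum against 1.61-fold to 2.14-fold for the other members.

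The non-adipose cells of the same cultures held less of the pathway. The 8 genes summed to 310.3 CPM (262 to 365) in the 20 labelled white glial cells, 438 in 14 white myeloid cells, 320.4 in 22 brown glial cells, 451 in 27 brown myeloid cells and 526 in 8 myoblasts. Hmgcs1 was at 54.9 CPM in white and 55.2 in brown glial cells, below the 271 and 232 CPM of the white and brown precursor cells. Hmgcs1, Idi1 and Cyp51 were below the precursor level of their depot in all 5 of these cell groups by more than counting error. Srebf2 was within counting error of it in all 5, for example at 71.8 CPM (49.7 to 100.3) in white glial cells and 103 (66.5 to 152) in myoblasts, against 86.3 and 83.3 CPM in white and brown precursor cells. Sqle and Lss were within counting error of it in 3 of the 5, on few UMIs for Lss, and Fdft1 and Insig1 in 1.

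Committed cells were compared with fibro-adipogenic cells of the same culture, the contrast by which the study separates the adipogenic from the fibrogenic fate. In WAT all 8 members were higher in wCAPs than in wFAPLs by more than counting error, with log2 ratios of 0.16 to 0.64, and their sum had a log2 ratio of 0.30 (0.25 to 0.34). Only Lss was past 1.5-fold, with a log2 ratio of 0.64 (0.32 to 0.98), where 4.23% of the 9199 genes at 10 CPM or more in either cluster were higher by as much and 4.48% lower. With labels carried over to all filtered cells, with cells thinned to 10000 UMIs or with a mean of CPM per cell, Lss too stayed under 1.5-fold. With cells in G1 alone the log2 ratio of the sum was 0.20, that of Hmgcs1 0.21 and that of Idi1 0.074. With thinned cells that of Hmgcs1 was 0.17 and that of Insig1 0.48.

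In BAT the same contrast was wider. The log2 ratio of the sum, bCAPs over bFAPLs, was 0.74 (0.69 to 0.79), and 7 of the 8 members were more than 1.5-fold higher, where 5.56% of 9148 genes were. The enzymes reached log2 ratios of 0.90 (0.75 to 1.04) for Idi1, 0.90 (0.54 to 1.27) for Lss, 0.89 (0.79 to 0.99) for Hmgcs1 and 0.80 (0.64 to 0.96) for Sqle. Fdft1 had 0.68 (0.51 to 0.85), Insig1 0.72 (0.53 to 0.91) and Cyp51 0.60 (0.48 to 0.71), close to the 1.5-fold line. The remaining member, Srebf2, had a log2 ratio of 0.41 (0.25 to 0.58), and of 0.23 with thinned cells. None was past 2-fold. The paper's pathway analysis of the same contrasts reports cholesterol synthesis as enriched in wCAPs, and a moderate enrichment of metabolic pathways in bCAPs. That measure is unlike these ratios.

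The log2 ratio of committed over fibro-adipogenic cells was larger in BAT than in WAT for each of the 8 members, by 0.25 for Cyp51 to 0.70 for Idi1 and by 0.45 for the sum, where 54.9% of the 8877 genes compared in both depots had the larger log2 ratio in BAT. Between the depots, the sum had a log2 ratio of -0.35 (-0.41 to -0.29) in bFAPLs over wFAPLs, with 0 members past 1.5-fold, where 2.15% of all genes were higher and 4.0% lower. In bCAPs over wCAPs it was 0.09 (0.06 to 0.13), again with 0 members past 1.5-fold, where 5.63% were higher and 7.11% lower. The sum thus differed more between the FAPLs of the depots than between their CAPs, although Sqle, Insig1 and Lss had the wider gap between the CAPs. Hmgcs1, for example, was at 154 CPM in bFAPLs and 213 in wFAPLs, but at 286 in bCAPs and 267 in wCAPs. The difference between depots was not tested, since each depot is 1 library.

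**Figure D2:**
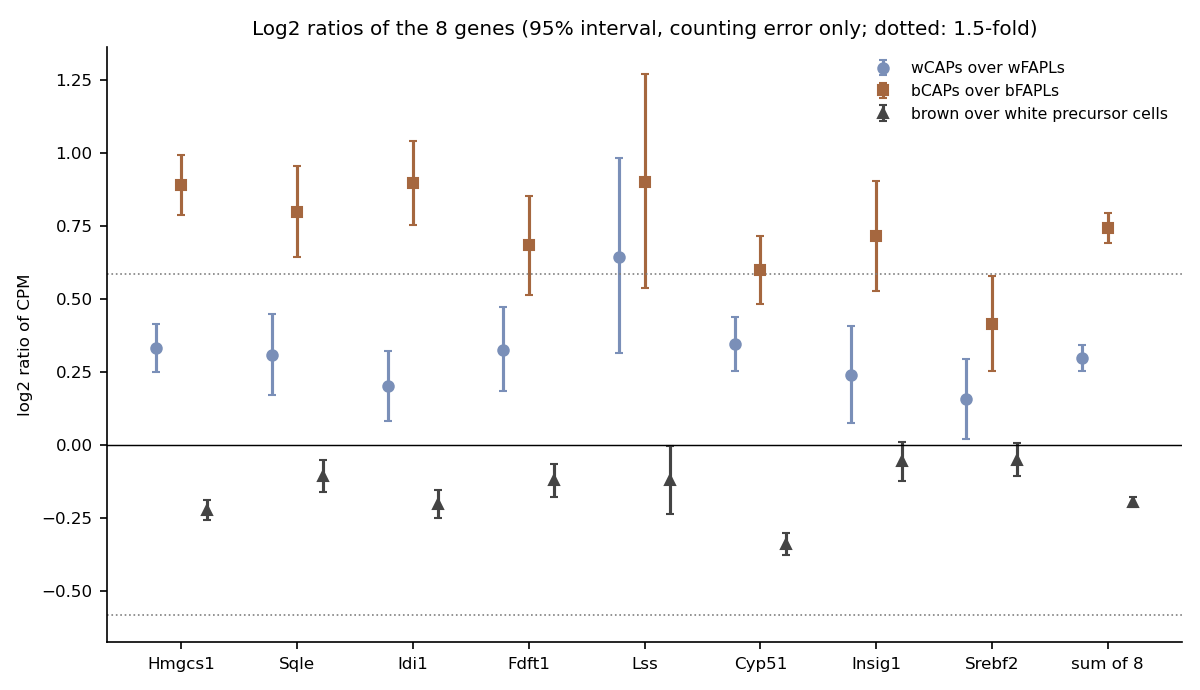
Log2 ratio of CPM (y axis) for each gene and their sum (x axis) in 3 comparisons, with 95% conditional binomial intervals for counting error; dotted lines mark 1.5-fold. The brown squares, bCAPs over bFAPLs, lie above the blue circles, wCAPs over wFAPLs, for every gene, and the triangles, brown over white precursor cells, lie at or below 0.

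Other measures differed between these clusters as well. All 4 mural markers were higher in FAPLs than in CAPs, with summed levels of 4656 against 2408 CPM in WAT and 6144 against 4341 CPM in BAT, of which Acta2, smooth muscle actin, made up most. The share of cells called in G1 was 71.4% in wCAPs, 66.4% in wFAPLs, 62.5% in bCAPs and 67.7% in bFAPLs, and the median depth was 26993, 26731, 25901 and 25194 UMIs in this order. The part of the contractile genes in the contrast was not tested, and within G1 cells the brown log2 ratio was 0.72.

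In wAPC 2, the members stood above both wCAPs and wFAPLs, apart from Srebf2, which was within counting error of wCAPs at a log2 ratio of 0.12. The log2 ratio of their sum over wCAPs was 0.39 (0.36 to 0.43), with Lss at 0.67 and Idi1 at 0.63 past 1.5-fold, where 3.26% of all genes were higher by as much and 2.67% lower. Over wFAPLs it was 0.69 (0.64 to 0.74), with Lss at 1.31 (0.96 to 1.67), Idi1 at 0.83, Hmgcs1 at 0.77, Cyp51 at 0.76 and Sqle at 0.66 past 1.5-fold, where 5.84% were higher and 5.43% lower. This comparison shares the wFAPLs with that of wCAPs. The committed markers Pparg and Fabp4 summed to 30.9 CPM in wAPC 2 and the preadipocyte gene Dlk1 was at 1015 CPM, so the white cluster with the most sterol gene RNA was not the one with the most adipogenic RNA.

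Over all labelled precursor cells, the 8 genes summed to 989 CPM (981 to 997) in WAT and 864 (856 to 871) in BAT, a log2 ratio of brown over white of -0.20 (-0.21 to -0.18). No member was past 1.5-fold, where 1.84% of 9041 genes were higher in brown and 3.26% lower. Cyp51 had a log2 ratio of -0.34 (-0.38 to -0.30), Hmgcs1 of -0.22 and Idi1 of -0.20, while Insig1 at -0.06 (-0.12 to 0.01) and Srebf2 at -0.05 (-0.11 to 0.01) were within counting error of 0. With each cluster given equal weight the log2 ratio of the sum was -0.024, and with the 15 differentiating wFAPLs left out of that average it was -0.14. Most of the change that equal weights made, from -0.20 to -0.024, thus rested on that cluster. The second value was computed after seeing the data. The 5 genes of the dissociation response (Fos, Jun, Egr1, Atf3 and Hspa1a) summed to 796 CPM in white and 582 in brown precursor cells, and their part in the difference was not tested.

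The remaining enzymes of cholesterol synthesis were mostly higher in CAPs too. Of 14 such enzymes, all 14 were higher in bCAPs than in bFAPLs and 10 were past 1.5-fold, with a median log2 ratio of 0.73 against 0.04 over all genes. The largest were Tm7sf2, a sterol reductase, at 1.11 (0.61 to 1.62) and Mvd, mevalonate decarboxylase, at 1.01 (0.74 to 1.29). In WAT none of the 13 at 10 CPM or more was past 1.5-fold and 11 had a log2 ratio above 0. Their median log2 ratio was 0.17 against 0.01 over all genes, Mvd was highest at 0.28 (0.04 to 0.52), and Ebp, the sterol isomerase, was at -0.18 (-0.32 to -0.03). Between the depots their median log2 ratio was -0.04, the same as over all genes, with Dhcr7, which makes cholesterol from its last precursor, at 0.26 and Sc5d, a sterol desaturase, at -0.20.

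Genes that sense sterols and process SREBP had smaller ratios in BAT than the synthesis enzymes. Over 6 such genes at 10 CPM or more the median log2 ratio, bCAPs over bFAPLs, was 0.15, against 0.04 over all genes. Of these 6, 0 were past 1.5-fold, where 5.56% of all genes were higher by as much and 4.34% lower. Insig2, the second INSIG, was at -0.24 (-0.52 to 0.05) and Mbtps2, the site-2 protease, at 0.21 (-0.12 to 0.54). In WAT, Mbtps2 was past 1.5-fold at 0.65 (0.37 to 0.94), where 4.23% of all genes were higher by as much. Scap was at 0.47 (0.18 to 0.77), and the median of the 6 was 0.07. In wAPC 2 over wFAPLs 2 of the 6 were past 1.5-fold, where 5.84% of all genes were higher by as much. These were Mbtps2 at 0.66 (0.34 to 0.99) and Scap at 0.65 (0.32 to 0.98). Srebf1, which encodes SREBP1, had a log2 ratio of CAPs over FAPLs of 0.09 in WAT and 0.12 in BAT, both intervals including 0. It is named although its values had been seen.

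Genes of sterol uptake, transport and storage went both ways. Of 10, Mylip, a ubiquitin ligase that removes lipoprotein receptors, was past 1.5-fold higher in bCAPs at a log2 ratio of 0.65 (0.43 to 0.87), and Vldlr, the VLDL receptor, was past 1.5-fold lower at -0.97 (-1.23 to -0.71), with 23.4 CPM in bCAPs and 45.9 in bFAPLs. In WAT none of the 10 was past 1.5-fold. Brown over white, Npc2, which carries cholesterol out of lysosomes, was at 0.30 and Scarb1, the HDL receptor, at -0.34. Of the 5 genes for efflux and oxysterols only 2 reached 10 CPM. Cyp7b1, an oxysterol hydroxylase, was at 262 CPM in wCAPs and 38.4 in wFAPLs, a log2 ratio of 2.77 (2.60 to 2.95), at 29.0 in bCAPs and 7.96 in bFAPLs, and at -2.41 (-2.49 to -2.33) brown over white. Abca1, the cholesterol exporter, was at -0.78 (-0.86 to -0.70) brown over white.

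Genes of fatty acid synthesis, also under SREBP control, had the same direction with 1 exception. Of 10 genes, 5 were more than 1.5-fold higher in bCAPs than in bFAPLs and 0 lower, with a median log2 ratio of 0.66, led by Elovl6, a fatty acid elongase, at 1.04 (0.80 to 1.28) and Fads2, a desaturase, at 0.85. In WAT 1 was past 1.5-fold, Acss2, which makes acetyl-CoA from acetate, at 0.66 (0.34 to 0.99). Me1, malic enzyme, was that exception in both depots, at -0.28 (-0.42 to -0.15) and -0.09 (-0.25 to 0.07). All 10 had a larger log2 ratio in BAT than in WAT, as did all 13 enzymes of cholesterol synthesis compared in both. Elovl6 was at -0.72 (-0.79 to -0.65) brown over white, the only gene of the list past 1.5-fold there.

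**Figure D3:**
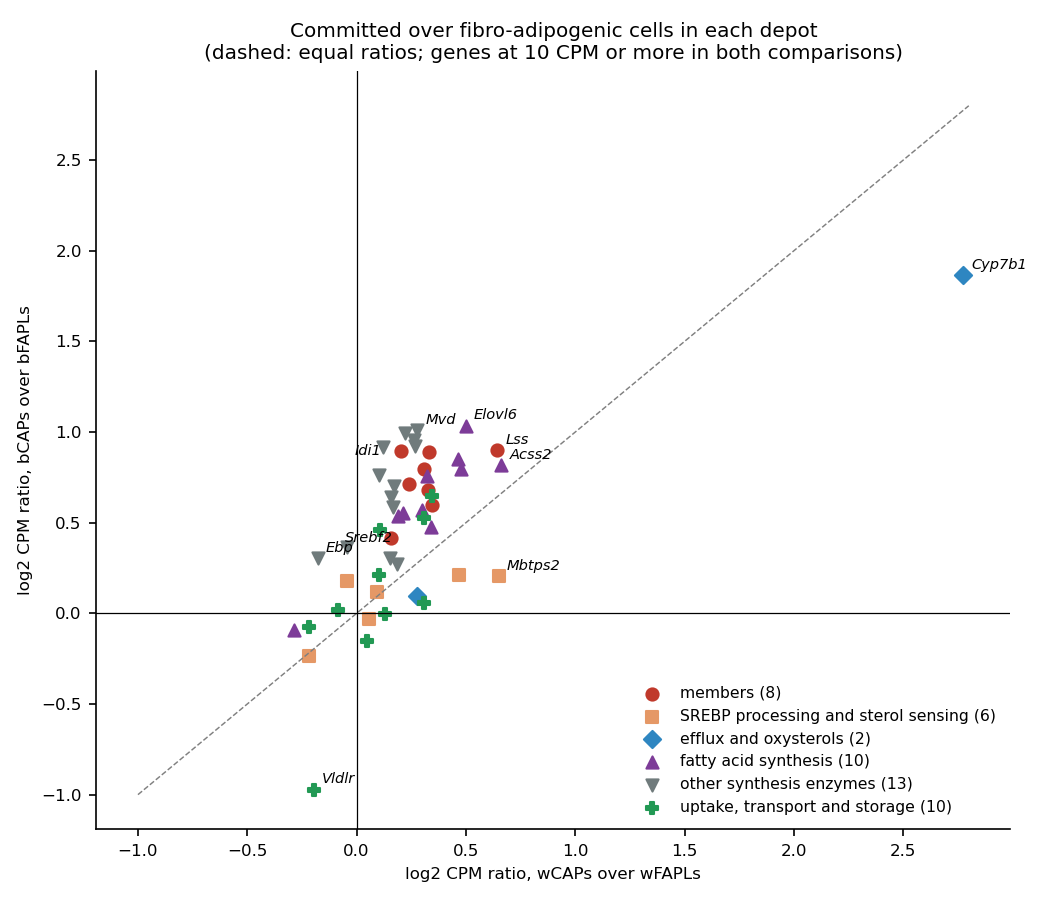
Log2 CPM ratio of committed over fibro-adipogenic cells in BAT (y axis) against WAT (x axis), 1 point per gene of the members and of 5 related lists at 10 CPM or more in both comparisons. The members (red circles), the other synthesis enzymes (grey triangles) and fatty acid synthesis (purple triangles) lie above the dashed line of equal ratios, whereas genes of SREBP processing lie on both sides of it.

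Within clusters the members also varied between cells. To set depth aside, each cell was thinned to 10000 UMIs, which left a median of 9 UMIs of the 8 genes in a white precursor cell and 8 in a brown one. The interquartile range was 7 to 17 UMIs in wAPC 2, 3 to 11 in wFAPLs, 6 to 14 in bCAPs and 3 to 8 in bFAPLs. Over all precursor cells of a depot, the variance between cells was 4.34 times the mean in WAT and 3.71 times in BAT. This includes differences between clusters, and counting alone gives a variance equal to the mean. Within single clusters the variance was 2.66 to 4.87 times the mean in WAT and 3.13 to 4.00 times in BAT, widest in wFAPLs. Cells without any UMI of the 8 genes numbered 33 of 1999 in WAT and 35 of 1999 in BAT.

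**Figure D4:**
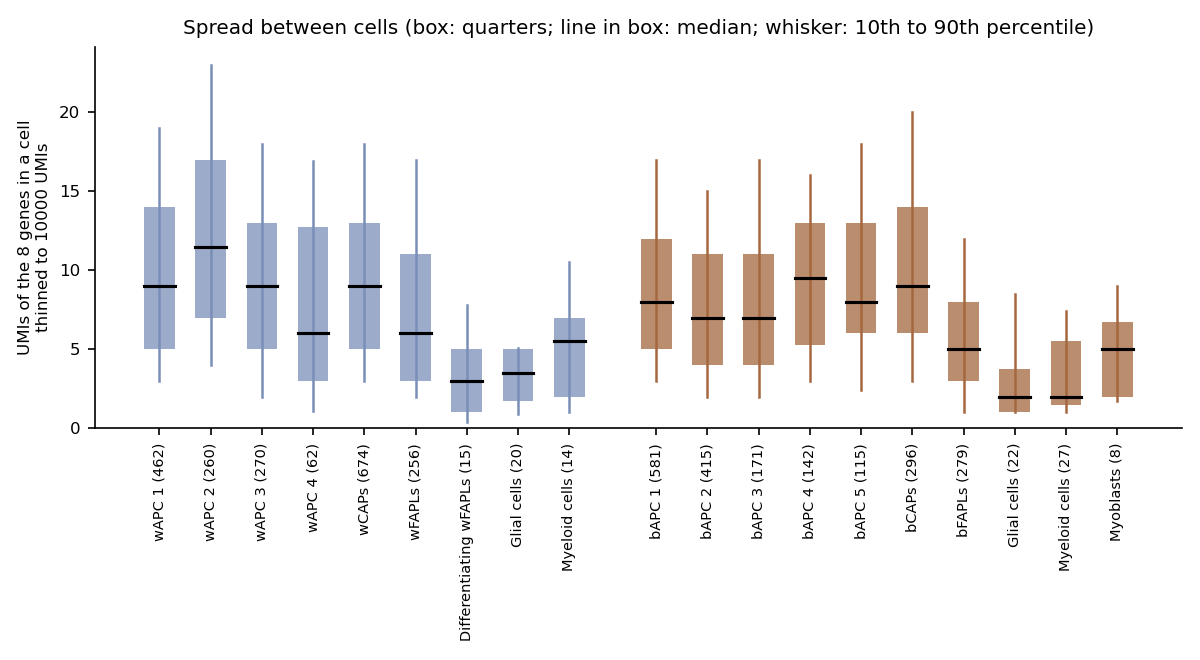
UMIs of the 8 genes per cell after thinning to 10000 UMIs (y axis) in each labelled cluster, with the number of cells in parentheses (x axis). The boxes of neighbouring clusters overlap widely; the median is 11.5 UMIs in wAPC 2 and 5 in bFAPLs.

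The members varied together in the same cells. Cells were ranked by the thinned UMIs of the other 7 members within each cluster of at least 50 cells. The quartile groups were then pooled over the clusters of a depot. In WAT the 544 cells at the top quartile held 444 CPM of Hmgcs1 and the 593 at the bottom one 131, a log2 ratio of 1.76, and in BAT these levels were 374 and 124 CPM. The log2 ratio of top over bottom was 2.19 in WAT and 1.88 in BAT for Idi1. For Sqle it was 1.82 and 1.44, and for Insig1 1.86 and 1.31. It was lowest for Srebf2, at 0.78 and 0.79. The ranked groups are ranges of a continuous spread, not cell types. Within single clusters of at least 50 cells, the Pearson correlation of a member with the sum of the other 7 was 0.37 to 0.67 for Hmgcs1, 0.37 to 0.68 for Idi1 and 0.28 to 0.58 for Cyp51, and it was 0.07 to 0.29 for Srebf2 and 0.07 to 0.31 for Lss, whose UMIs per cell are few. These are descriptions over cells of 1 library.

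The sum of the 8 genes had a within-cluster correlation over cells of 0.48 to 0.72 with the other synthesis enzymes and of 0.43 to 0.64 with fatty acid synthesis. With SREBP processing it was -0.08 to 0.16, with uptake, transport and storage -0.01 to 0.23, and with efflux and oxysterols -0.21 to 0.11. With the UMIs of the cell before thinning it was -0.16 to 0.09. Sparse counts lower such values, so a weak correlation here is no finding.

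**Figure D5:**
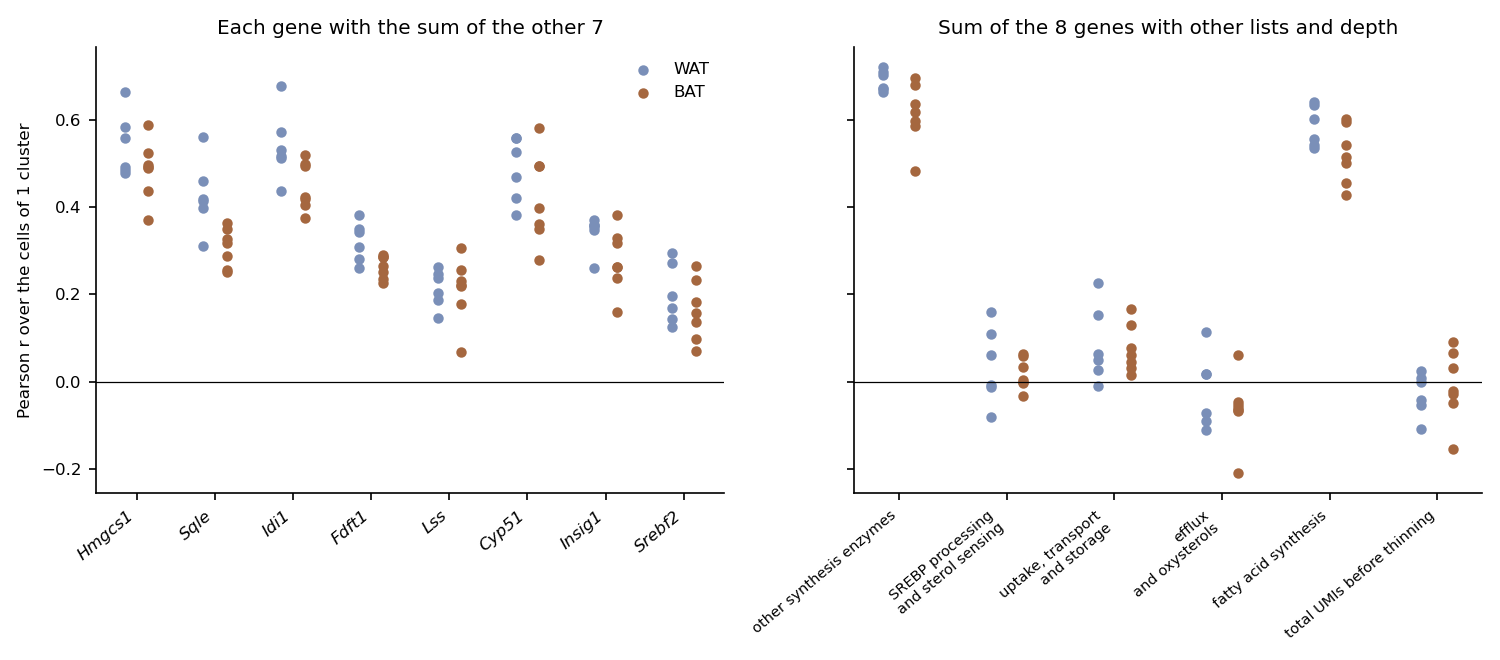
Pearson correlation over the cells of 1 cluster (y axis, 1 point per cluster of at least 50 cells, blue WAT and brown BAT) of each member with the sum of the other 7 (left) and of the sum of the 8 with 5 lists and with depth (right). Hmgcs1, Idi1 and Cyp51 have the higher values on the left, and only the enzymes of sterol and fatty acid synthesis stand clear of 0 on the right.

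Taken over all precursor cells of a depot, the sum of the 8 genes differed less between cycle phases than between clusters, but single clusters held wider steps. Over white precursor cells the 8 genes summed to 999 CPM in G1, 1073 in S and 900.0 in G2/M, and over brown ones to 878 (869 to 888), 905 and 795. The sum was lower in G2/M than in G1 in 13 of the 14 clusters, bAPC 1 being the exception. Among clusters of at least 50 cells the widest step was in bAPC 3, the brown cluster with 60.8% of its cells in G2/M, from 996 CPM (940.3 to 1054) in 48 G1 cells to 685 (653 to 718) in 104 G2/M cells, and among its members Cyp51 went from 202 to 144 CPM. Phase was called from gene scores, and cells in S and G2/M were deeper, with a median of 32350 and 31106 UMIs against 25497 in G1 in WAT.

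The pattern of the 8 genes over the 13 clusters with at least 50 labelled cells, as log2 CPM centred within each depot, was shared by few genes. Each member had a Pearson correlation of 0.83 (Sqle and Srebf2) to 0.95 (Idi1) with the mean of the other 7. Over 6713 genes with a mean of at least 20 CPM the median correlation with the mean of the 8 was 0.02 and the 95th percentile 0.56. Among listed genes the highest were Acly, the enzyme that makes cytosolic acetyl-CoA, at 0.97, and Elovl6 and Fads1 at 0.94. The median of 6 SREBP processing genes was 0.14, with values from -0.29 to 0.72, the latter for Mbtps2. Outside the lists, 9 of the 10 highest were AW551984 at 0.94, Erg28, which encodes a scaffold of sterol enzymes, at 0.90, Pdgfd and Fbn2 at 0.87, St3gal1 at 0.86, Ggta1 at 0.85, Pcdh9 and Pcdh18 at 0.84 and Myh10 at 0.83. AW551984 went from 36.8 CPM in wAPC 2 to 11.3 in wFAPLs and from 25.5 in bCAPs to 6.24 in bFAPLs. Clusters of a library share that library, so these values are descriptions with no p-value.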

How the data were processed

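The authors ran Cell Ranger 7.0.1 on 10x 3' libraries against mm10 and deposited counts of UMIs per gene and cell, without normalization. The members and lists were chosen with earlier results of these data known. Cells with over 3900 and under 7700 genes (found in at least 3 cells), 1.7 to 5% mitochondrial UMIs and 6000 to 60000 UMIs were kept, 4407 in WAT and 6137 in BAT, after the study's methods. The paper reports the same number for WAT and a slightly higher one for BAT. No doublet caller was run. Cluster labels came from the paper's source data, of which the part used here held 1999 of 4331 white and 1999 of 5958 brown precursor cells, in barcode order. Carried to other cells by a vote of 15 neighbours (2000 variable genes, 10 components), they returned 89.3% of held-out white and 84.4% of brown labels. Seurat 5.3.0 in R 4.3.3 called the cycle phase. UMIs were summed per cluster in Python with scipy, as CPM with 95% intervals, and compared over genes at 10 CPM or more in either cluster, past 1.5-fold. Depth was a median of 26239 UMIs per white and 26411 per brown cell. The genes named are the members, in each list and comparison up to 2 genes with the largest log2 ratio each way, the markers, and those most like the members over clusters. Alternatives were carried labels, thinning, G1 cells, mean CPM per cell, size factors, equal cluster weights, no filter and 2-fold. Motifs were searched in RefSeq promoters. The log2 ratios and the correlation over clusters were tested on simulated data with counting error alone, which leave out the wider variance between cells. Some genes of the pathway are not reported here.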

Additional observations from a re-analysis of the deposited data

Results flagged for a closer look

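Ebp, the sterol isomerase, was the only gene of the lists at 10 CPM or more whose intervals lay on opposite sides of 0 in the depots: its log2 ratio was -0.18 in wCAPs over wFAPLs and 0.30 in bCAPs over bFAPLs, and the difference between the depots was not tested. The sum of the 8 genes was also seen in cells that the study's filter removes, which no comparison uses. In WAT it was 1173 CPM (1085 to 1265) in 297 cells with at most 6000 UMIs, 1000.0 CPM in 117 cells with over 60000 and 984 CPM in 440 cells between. In BAT it was 452 CPM (375 to 541) in 152 such shallow cells, 814 CPM in 245 deep ones and 809 CPM in 475 between. The shallow cells had a median of 1485 UMIs and a mitochondrial share of 1.07% in WAT, and of 1232 UMIs and 3.96% in BAT.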

How the results depend on the processing

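With 1 library per depot, precision is limited to counting error, and the spread between cultures or animals is unknown. No paired analysis was possible because the depots have 1 library each and no test was made. The log2 ratios of the 8 members and of their sum, and the counts of members past 1.5-fold, were recomputed in the CAP comparison of each depot and between the depots. Those of the other gene lists were not. For wCAPs over wFAPLs the sum moved past its counting interval with G1 cells (0.20), and the count of members past 1.5-fold went from 1 to 0 with carried labels, thinned cells, a mean of CPM per cell or a 2-fold limit. For bCAPs over bFAPLs the sum was 0.68 with carried labels, the count of 7 became 6 with carried labels, thinned cells or size factors, and it was 0 at 2-fold. For brown over white precursor cells the sum was -0.23 with carried labels, -0.15 with size factors and -0.024 with equal cluster weights, under which Fdft1 (0.044) and Lss (0.17) reversed. With the 15 differentiating wFAPLs left out of the equal weights, an alternative chosen after seeing the data, the sum was -0.14, Fdft1 -0.053 and Lss -0.0047, so both reversals rested on that cluster, in which Lss had 2 UMIs. Of the single members under all alternatives but that one, 40 of 40 values kept their direction in each CAP comparison and 43 of 48 between depots, and 35 of 40 white, 39 of 40 brown and 35 of 48 depot values stayed inside the counting interval. The largest change was 0.24 in WAT, 0.19 in BAT and 0.29 between depots on the log2 scale. The counts of members highest in wAPC 2 and lowest in bFAPLs, chosen for this after seeing the data, were 8 in all settings but thinned cells, where both were 7. The causes were not tested.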
